A study of Mus musculus with 4 samples.

Results

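Markers of the enteric nervous system were followed in colon mucosa across 4 genotypes of mice. The 8 markers were Sox10, S100b and Gfap for glia, Elavl4, Uchl1, Tubb3 and Prph for neurons, and the neuropeptide gene Vip. They were chosen by name out of 18194 genes on the array, each through every probe set whose only annotated symbol was that gene, which gave 18 probe sets. Where a gene is given 1 value per array, it is that of its brightest probe set, by the mean of the arrays. Mucosa had been scraped from the colon of 129S6/SvEv mice at 5 weeks of age. Each genotype was hybridised to 1 array, so there is no replicate, no difference below has a replicate check, and no p-value is given.

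The VhlΔIE/Apcmin/+ array stands for 5 mice in the design text, with Vhl knocked out in the intestine and the Apc min allele of the intestinal tumour model. The VhlF/F/Apcmin/+ array stands for 3 mice with floxed Vhl and the same Apc allele. The VhlΔIE array stands for 3 mice with the intestinal Vhl knockout and no Apc min allele, and the VhlF/F array for 4 mice with floxed Vhl alone, the controls. All 4 groups thus carried a floxed or deleted Vhl. The sources used here give neither the Cre driver nor whether the mice of a group were pooled. The labels place the knockout in the intestine and do not name neurons or glia as its site.

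The gut holds its own nervous system, which arises from neural crest cells and lies in a myenteric plexus between the muscle layers and a submucosal plexus below the mucosa. Enteric glia surround the neurons, and processes of both reach into the mucosa. VIP, released by submucosal secretomotor neurons and by inhibitory motor neurons, drives fluid secretion and relaxes muscle. Scraping mainly takes the mucosa, so the neural RNA in such a sample depends on how much of the layers below comes with it. In a bulk sample, fewer cells of a type and less RNA per cell cannot be told apart.

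Values are RMA log2 values, so a difference of 1 is a 2-fold difference. Control probe sets for Bacillus transcripts lay between 2.82 and 5.10, with a median of 3.23. A gene counted as above the floor when it reached 6 on at least 1 array, which 11871 genes did. Of the 8 markers, Vip, Prph, Uchl1, Elavl4 and Sox10 lay above 6 on every array. Tubb3, S100b and Gfap stayed below 6 on every array. Of the 4 neuronal markers 3 passed and of the 3 glial markers 1, so the measured set is neuronal more than glial.

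The arrays also differed outside the nervous system. Vhl was at 6.56 on the VhlΔIE/Apcmin/+ array and 8.17 on the VhlF/F/Apcmin/+ array, and at 7.03 on the VhlΔIE array and 8.40 on the VhlF/F array. The array also carries 4 probe sets for Cre recombinase among its controls, and these had medians of 9.49, 3.86, 9.45 and 4.00 on the arrays in the same order. Xist, transcribed from the inactive X chromosome, was at 6.25, 11.83, 5.58 and 11.37 in that order, so the sex makeup of the samples moved with Vhl status. In every Vhl comparison below, sex and Vhl deletion cannot be told apart, and the part of sex in the results was not tested. The liver gene Alb was at 7.08, 6.10, 7.24 and 11.53, and the VhlF/F array stood apart in this way. Comparisons with the VhlF/F array cannot be made without it, but the comparisons of VhlΔIE/Apcmin/+ with VhlF/F/Apcmin/+ and with VhlΔIE do not use it. The comparison with VhlF/F/Apcmin/+ is a Vhl comparison, so its arrays differ widely in Xist. The VhlΔIE/Apcmin/+ and VhlΔIE arrays differ in Xist as well, by 0.67, a smaller gap.

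Vip was lower on the VhlΔIE/Apcmin/+ array than on the other 3. Its only probe set, 1428664_at, was at 9.13 on the VhlΔIE/Apcmin/+ array, 9.94 on the VhlF/F/Apcmin/+ array, 10.02 on the VhlΔIE array and 10.16 on the VhlF/F array. The last 3 lay close together and the first stood below them. Between the Apc mutant arrays the difference with Vhl deletion was -0.80, a level 1.74-fold lower. Without the Apc mutation the same comparison gave -0.14. The first of these minus the second was -0.66, which could not be tested. Seen from the other side, the Apc mutation went with a Vip difference of -0.88 where Vhl was deleted, a level 1.85-fold lower, and of -0.22 where it was floxed. Vip was the 1 marker above the floor that was 1.5-fold lower in any comparison, namely those of VhlΔIE/Apcmin/+ with VhlF/F/Apcmin/+ and with VhlΔIE. Of the 11871 genes, 5.15% were lower by 1.5-fold or more in the first of these comparisons and 0.792% in the second. The share was 5.08% for VhlΔIE against VhlF/F and 2.36% for VhlF/F/Apcmin/+ against VhlF/F, where 0 of the 5 markers were. The range of Vip over the 4 arrays, 1.02, was the widest of the markers, but it did not reach 2-fold in any of the 4 comparisons. The other markers above the floor lay between 6.11 and 7.22, nearer background, where RMA understates differences. The sizes for Vip and for these markers are thus not on an equal footing.

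The stretches ahead of Vip, Elavl4 and Uchl1 are shown because these markers above the floor had the same lowest and highest array. They are RefSeq sequences of the C57BL/6J reference, build GRCm38.p6, cut so that they end before the first base of the annotated gene, and the mice here were of another strain. Sequences were found for 7 of the 8 markers, Sox10 being the exception, and that of Prph lies inside the annotated gene and is not printed. Those of Tubb3, S100b and Gfap, whose signal stayed below the floor, each hold 0 of the motifs searched and are not printed. Capitals mark ACGTG or GCGTG, the core of the site that HIF dimers bind, and TGACG, the half-site of the cAMP response element, searched on both strands. Vip lies on the plus strand, at chr10:5638968-5639192, Elavl4 on the minus strand, at chr4:110351940-110352161, and Uchl1 on the plus strand, at chr5:66675871-66676120.
Vip: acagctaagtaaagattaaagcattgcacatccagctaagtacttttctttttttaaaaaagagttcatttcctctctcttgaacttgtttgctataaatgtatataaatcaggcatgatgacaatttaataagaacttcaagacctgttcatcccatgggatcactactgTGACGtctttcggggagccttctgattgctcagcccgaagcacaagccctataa
Elavl4: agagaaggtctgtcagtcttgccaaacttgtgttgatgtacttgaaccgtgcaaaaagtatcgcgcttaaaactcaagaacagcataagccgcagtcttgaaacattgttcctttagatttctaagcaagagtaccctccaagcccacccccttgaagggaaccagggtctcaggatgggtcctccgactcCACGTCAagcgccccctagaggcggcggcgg
Uchl1: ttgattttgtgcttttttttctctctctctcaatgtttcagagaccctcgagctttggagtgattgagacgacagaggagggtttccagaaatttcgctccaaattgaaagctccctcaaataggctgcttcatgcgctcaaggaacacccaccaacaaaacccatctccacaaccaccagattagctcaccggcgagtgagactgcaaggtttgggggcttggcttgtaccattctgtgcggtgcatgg
The Vip stretch of 225 bases holds 1 cAMP half-site and 0 HIF cores. The Elavl4 stretch of 222 bases holds 1 of each, and the 2 overlap in the same run of capitals. The Uchl1 stretch of 250 bases holds 0 of either. Of 32851 mouse promoter windows of 250 bases, 38.6% hold a HIF core and 17.8% a cAMP half-site. A match is a run of letters and no evidence of binding.

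Prph, which encodes the intermediate filament peripherin of peripheral neurons, was lower with either genetic change by its brightest probe set. Probe set 1422530_at was at 6.11 on the VhlΔIE/Apcmin/+ array, 6.65 on the VhlF/F/Apcmin/+ array, 6.56 on the VhlΔIE array and 7.11 on the VhlF/F array. The arrays with 1 of the 2 changes lay between the other two. With Vhl deletion the difference was -0.54 in the presence of the Apc mutation and -0.56 in its absence. With the Apc mutation it was -0.44 where Vhl was deleted and -0.46 where it was floxed. The 3 other Prph probe sets stayed between 5.24 and 5.70 and did not all move alike. Of all 4 Prph probe sets, 3 were lower on the VhlΔIE/Apcmin/+ array than on the VhlF/F/Apcmin/+ array, and 2 were lower on the VhlΔIE array than on the VhlF/F array. With the Apc mutation 3 of the 4 were lower on deleted Vhl and 2 on floxed Vhl. The mean over the 4 probe sets gave -0.12 in each of these Apc comparisons.

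Uchl1 encodes the ubiquitin hydrolase PGP9.5, a cytoplasmic marker of most enteric neurons. Its only probe set, 1448260_at, was at 6.40 on the VhlΔIE/Apcmin/+ array, 6.94 on the VhlF/F/Apcmin/+ array, 6.79 on the VhlΔIE array and 7.22 on the VhlF/F array. The order of the arrays was that of Prph. The Vhl differences were -0.54 with the Apc mutation and -0.44 without it, and the Apc differences were -0.38 with deleted and -0.28 with floxed Vhl.

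Elavl4 encodes HuD, an RNA-binding protein of neurons. Probe set 1428741_at was at 6.54 on the VhlΔIE/Apcmin/+ array, 6.70 on the VhlF/F/Apcmin/+ array, 6.97 on the VhlΔIE array and 7.03 on the VhlF/F array. Here the 2 Apc mutant arrays were the lower pair. The Apc differences were -0.43 with deleted and -0.33 with floxed Vhl, and the Vhl differences were -0.17 with and -0.06 without the Apc mutation. The other 2 Elavl4 probe sets lay under the floor, between 5.10 and 5.79. All 3 were lower in each of the 4 comparisons, and all 3 were lowest on the VhlΔIE/Apcmin/+ array. Their Vhl differences without the Apc mutation were larger in size, so that the mean over the 3 probe sets gave -0.34 in that comparison.

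Tubb3, the beta-tubulin isotype of neurons, was measured by 1 probe set, 1415978_at, near background. It was at 5.48 on the VhlΔIE/Apcmin/+ array, 5.56 on the VhlF/F/Apcmin/+ array, 5.54 on the VhlΔIE array and 5.92 on the VhlF/F array. The VhlF/F array was the high one and the others lay within 0.1 of each other. At this level the signal is compressed, and the differences of -0.38 for VhlΔIE minus VhlF/F and -0.36 for VhlF/F/Apcmin/+ minus VhlF/F rest on the VhlF/F array.

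The glial markers showed no such order. Sox10, the transcription factor that maintains neural crest progenitors and glia, was at 6.72 on the VhlΔIE/Apcmin/+ array, 6.62 on the VhlF/F/Apcmin/+ array, 6.51 on the VhlΔIE array and 6.61 on the VhlF/F array with probe set 1451689_a_at. All 4 values lay within 0.21 of each other, with the VhlΔIE/Apcmin/+ array the highest. A 2nd Sox10 probe set, 1424985_a_at, lay between 6.24 and 6.28, and a 3rd, 1425369_a_at, between 4.17 and 4.88. S100b, a calcium-binding protein of glia, lay between 5.15 and 5.36 with probe set 1434342_at and between 4.87 and 5.29 with 1419383_at. Gfap, the intermediate filament of astrocytes and of many enteric glia, lay between 4.92 and 5.26 with probe set 1426508_at, at the top of the range of the Bacillus controls. The other 2 Gfap probe sets lay between 3.55 and 4.10. A change in either of these transcripts was not detectable at such signal.

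**Figure D1:**
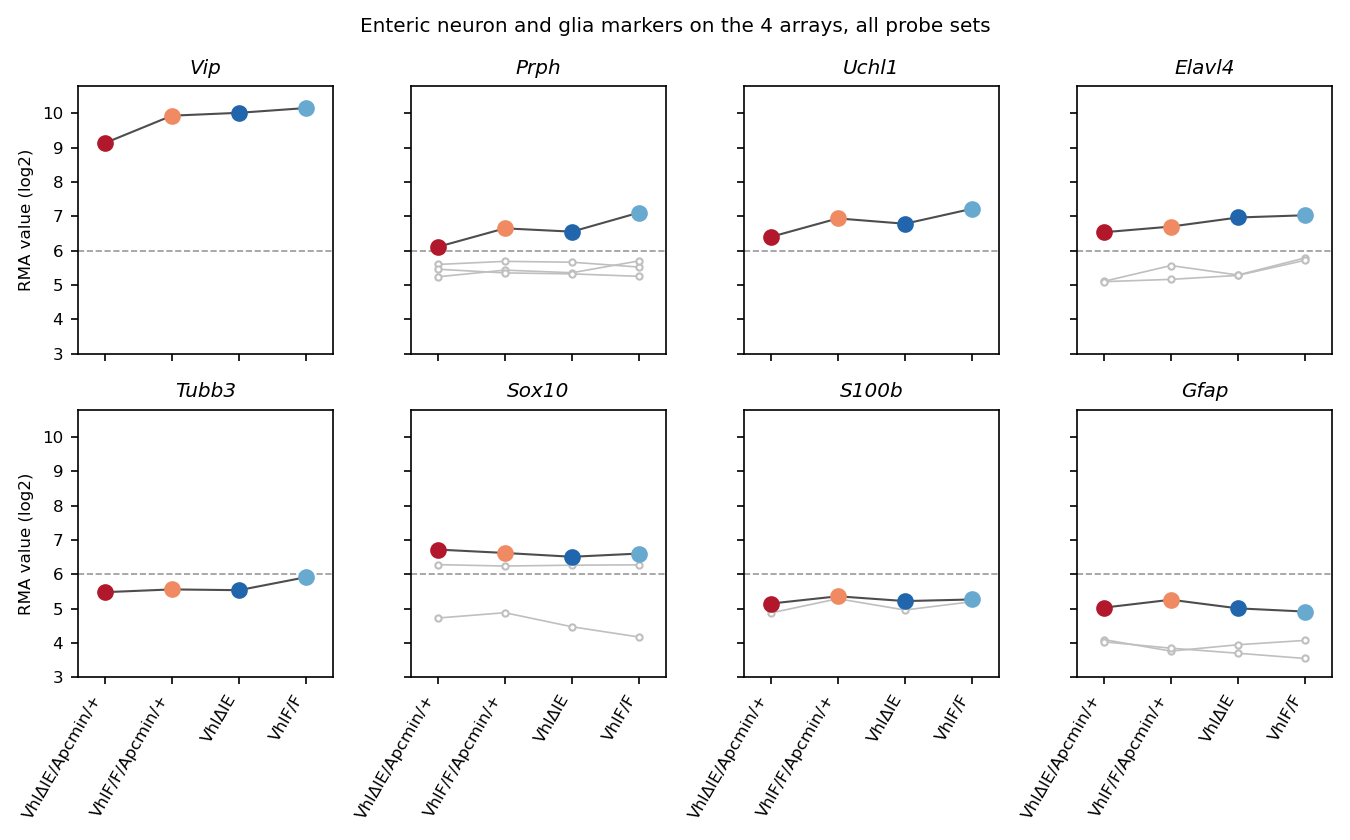
RMA log2 value (vertical axis) of each marker on the 4 arrays (horizontal axis), 1 array per genotype. Filled points joined by a dark line are the probe set with the highest mean, pale open points the other probe sets of the gene, and the dashed line is the floor of 6; Vip is lowest on the VhlΔIE/Apcmin/+ array at 9.13, Prph, Uchl1 and Elavl4 share the same lowest and highest array, and the brightest Sox10 probe set stays within 0.21.

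As a set, 0 of the 5 markers above the floor was 2-fold apart in any of the 4 comparisons. Of all genes above the floor, 2.82% were higher by 2-fold or more and 1.52% lower by as much on the VhlΔIE/Apcmin/+ array than on the VhlF/F/Apcmin/+ array. The percentages were 2.27% and 1.6% for VhlΔIE against VhlF/F, 0.202% and 0.118% for VhlΔIE/Apcmin/+ against VhlΔIE, and 0.118% and 0.901% for VhlF/F/Apcmin/+ against VhlF/F. The median difference of the 5 markers was -0.54 for Vhl deletion with the Apc mutation and -0.14 without it. It was -0.43 for the Apc mutation with deleted Vhl and -0.28 with floxed Vhl. The medians of all genes in these comparisons were -0.02, -0.02, 0.00 and 0.00. Over all 8 markers, with those near background included, the first of these medians was -0.22 and the third -0.23.

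Most markers above the floor shared the order of the arrays. Vip, Prph, Uchl1 and Elavl4, 4 of the 5 markers above the floor, were lowest on the VhlΔIE/Apcmin/+ array and highest on the VhlF/F array. That order held for 12.2% of all genes above the floor, and 26% of them were lowest on the VhlΔIE/Apcmin/+ array. Tubb3, below the floor, had the same lowest and highest array. The order was not particular to the markers, since 11 of 14 smooth muscle genes and 7 of 10 transmitter genes other than Vip had it too, and 12 of the 14 muscle genes were lowest on the VhlΔIE/Apcmin/+ array. Of the 7, Cartpt passed the floor on the VhlF/F array alone. With genes kept by their mean over the 4 arrays, 6 of 8 transmitter genes had the order. The 4 values of a gene come from 4 arrays that all markers share, so the markers are not independent of each other in this.

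**Figure D2:**
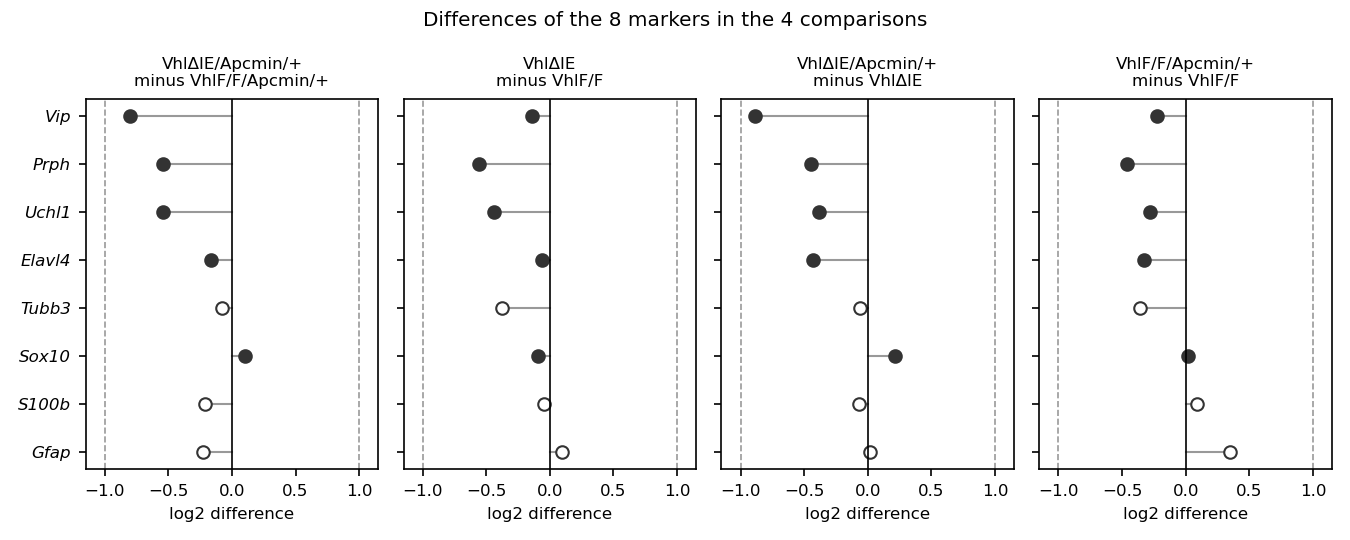
Log2 difference (horizontal axis) of the 8 markers in the 4 comparisons, 1 panel each, for the probe set with the highest mean. Filled points are markers above the floor, open points markers below it, and dashed lines mark 2-fold; Vip reaches -0.80 and -0.88 in the comparisons of VhlΔIE/Apcmin/+ with VhlF/F/Apcmin/+ and with VhlΔIE, and no point passes 2-fold.

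Other neuronal genes had lower values more often than not. Of 28 such genes 26 were measured and 17 lay above the floor, 12 of them on every array. Between the Apc mutant arrays, 14 of these 17 were lower with Vhl deletion, with a median of -0.33, where 53.5% of all genes were lower. Without the Apc mutation 14 of 17 were lower, with a median of -0.28, against 53.3% of all genes. With the Apc mutation on deleted Vhl 11 of 17 were lower, with a median of -0.28, against 49.4% of all genes, and on floxed Vhl 13 of 17, with a median of -0.11, against 49.1%. The floor fixed some of these directions. Elavl3 and Map2 passed it on the Vhl floxed arrays alone, so they had to be lower with Vhl deletion. Ina and Gfra1 passed it on the VhlF/F array alone, so they had to be lower in both comparisons with that array. Rbfox3 passed it on the Apc mutant arrays alone, so it had to be higher there. Of the 17, 8 had the order of the 4 markers, lowest on the VhlΔIE/Apcmin/+ and highest on the VhlF/F array. Among these 8, Ina passed the floor on the VhlF/F array alone, so it had to be highest there. When genes were kept by their mean over the 4 arrays, the high array alone could not let a gene in. Of the 13 genes that remained, 11, 11, 9 and 11 were lower in the 4 comparisons. Their medians were -0.36, -0.28, -0.34 and -0.11. Of these 13, 7 had the order of the 4 markers. With values under 6 raised to 6, the median for VhlΔIE/Apcmin/+ minus VhlΔIE was -0.071, and without a floor it was -0.18. Its size thus depended on how dim genes were handled, since keeping genes by their mean gave -0.34. With a floor of 7 the median for VhlΔIE/Apcmin/+ minus VhlF/F/Apcmin/+ was -0.50. Syt1, Stmn2 and Hand2 reached 7 on the VhlF/F/Apcmin/+ array and not on the VhlΔIE/Apcmin/+ array. A lower value on the VhlΔIE/Apcmin/+ array was thus partly built into this floor.

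Stmn2, a microtubule regulator of growing axons, was the 1 gene of this list past 2-fold. It was at 6.19 on the VhlΔIE/Apcmin/+ array, 7.29 on the VhlF/F/Apcmin/+ array, 6.85 on the VhlΔIE array and 7.40 on the VhlF/F array. The Vhl difference was -1.11 with the Apc mutation and -0.55 without it. Like Vip, it was lowest on the VhlΔIE/Apcmin/+ array by a wider gap than the other arrays showed among themselves. Snap25, a synaptic vesicle fusion protein, was at 6.27, 6.78, 7.06 and 7.38 on the VhlΔIE/Apcmin/+, VhlF/F/Apcmin/+, VhlΔIE and VhlF/F arrays. Hand2, a transcription factor that enteric neurons need and that gut mesenchyme also expresses, was at 6.38, 7.09, 6.84 and 7.58 in the same order. Snap25 had the larger differences with the Apc mutation, -0.79 with deleted and -0.59 with floxed Vhl, and Hand2 with Vhl deletion, -0.72 with and -0.74 without the Apc mutation.

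Transmitter genes other than Vip were also lower as a list. Of 19 genes 18 were measured and 10 lay above the floor, 7 of them on every array. With Vhl deletion 8 of 10 were lower in the presence of the Apc mutation, with a median of -0.37, against 53.5% of all genes, and 9 of 10 in its absence, with a median of -0.24, against 53.3%. With the Apc mutation 8 of 10 were lower on deleted Vhl, with a median of -0.36, against 49.4% of all genes, and 8 of 10 on floxed Vhl, with a median of -0.42, against 49.1%. Cartpt and Npy were at the floor on 1 array only, and without them, by the mean over the 4 arrays, 6, 7, 6 and 7 of 8 genes were lower in the 4 comparisons. With values under 6 raised to 6 the first of these medians was -0.13. Without a floor the 4 medians were -0.17, -0.13, -0.25 and -0.23, and with the mean over probe sets the last was -0.24. Gal, the neuropeptide galanin, was at 6.05 on the VhlΔIE/Apcmin/+ array, 6.45 on the VhlF/F/Apcmin/+ array, 6.39 on the VhlΔIE array and 7.20 on the VhlF/F array. Grp, gastrin-releasing peptide, was at 5.77, 6.18, 6.31 and 6.90 in the same order. Cartpt, which encodes the CART peptide of enteric neurons, was at 5.53, 5.70, 5.89 and 6.51 and passed the floor on the VhlF/F array alone, so it had to be higher there. Gal and Grp had their largest gap below the VhlF/F array, unlike Vip, whose largest gap lay above the VhlΔIE/Apcmin/+ array.

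The other glial genes were divided. Of 16 genes 14 were measured and 10 lay above the floor, several of them, such as the epithelial Erbb3, also made outside glia. With Vhl deletion 4 were higher and 6 lower in the presence of the Apc mutation, with a median of -0.10, and 5 and 5 in its absence, with a median of -0.02. With the Apc mutation 3 were higher and 7 lower on deleted Vhl, with a median of -0.11, and 5 and 5 on floxed Vhl, with a median of 0.01. The shares of all genes that were lower in these comparisons were 53.5%, 53.3%, 49.4% and 49.1%. Medians this near 0 could change sign, and with a floor of 7 the first of them was 0.058. Ednrb, the endothelin receptor that enteric progenitors need, was at 7.57 on the VhlΔIE/Apcmin/+ array, 7.13 on the VhlF/F/Apcmin/+ array, 7.96 on the VhlΔIE array and 7.21 on the VhlF/F array. Gpm6b, a membrane proteolipid of glia and neurons, was at 6.88, 6.51, 7.30 and 6.64 in the same order. Both were higher on the Vhl deleted arrays, and endothelial genes, a cell type that also makes Ednrb, moved the same way. All 8 of the endothelial markers were higher with Vhl deletion in both backgrounds, with medians of 0.89 and 1.16, where 5515 and 5532 of 11871 genes were higher. Cdh5 and Tek reached the floor on the Vhl deleted arrays alone, so they had to be higher there. Cldn5 differed by only 0.004 with the Apc mutation. Kept by the mean over the 4 arrays, all 8 remained. The summed linear level of the 8 was 2784 on the VhlΔIE/Apcmin/+ array, 1279 on the VhlF/F/Apcmin/+ array, 2960 on the VhlΔIE array and 1235 on the VhlF/F array. None of them was at 0, and their part in the Ednrb values was not tested. Ngfr, the low-affinity neurotrophin receptor of glia and progenitors, was at 5.99, 6.24, 6.43 and 6.48 in the same order of arrays, and its largest difference was -0.44, for VhlΔIE/Apcmin/+ minus VhlΔIE.

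Of the 3 VIP and PACAP receptors, only Vipr1 followed Vhl status. Vipr1, the VIP and PACAP receptor that epithelial cells carry, was at 9.89 on the VhlΔIE/Apcmin/+ array, 10.77 on the VhlF/F/Apcmin/+ array, 9.88 on the VhlΔIE array and 10.72 on the VhlF/F array. The 2 Vhl deleted arrays were the low pair and the values within each pair nearly coincided. The Vhl differences were -0.88 with and -0.84 without the Apc mutation, and the Apc differences were 0.01 with deleted and 0.05 with floxed Vhl. Vip itself did not show this arrangement, since it was low on the VhlΔIE/Apcmin/+ array and not on the VhlΔIE array. Adcyap1r1, the PACAP receptor, lay at 6.21, 6.18 and 6.22 on the first 3 of these arrays and at 5.77 on the VhlF/F array. Its Vhl differences were 0.03 with and 0.45 without the Apc mutation, opposite in sign to those of Vipr1. Vipr2 stayed below the floor.

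Among trophic ligands and receptors 6 of 13 lay above the floor, and their medians were -0.01 and -0.02 with Vhl deletion and 0.09 and 0.05 with the Apc mutation. Ntrk2, the receptor of brain-derived neurotrophic factor, was at 7.60 on the VhlΔIE/Apcmin/+ array, 6.78 on the VhlF/F/Apcmin/+ array, 7.20 on the VhlΔIE array and 7.14 on the VhlF/F array. It was high where Vip and Stmn2 were low. Sema3a, an axon repellent, lay between 6.93 and 7.34, and Gfra2, the neurturin receptor, between 7.50 and 7.75.

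Genes of the muscle next to the plexuses were mostly lower in the same comparisons as the neuronal markers. All 14 smooth muscle markers were lower with Vhl deletion in both backgrounds, with medians of -0.39 with the Apc mutation and -0.56 without it. The shares of all genes that were lower were 53.5% and 53.3%. Synpo2, an actin-binding protein of muscle, was the furthest apart with the Apc mutation, at -0.75, and Synm, an intermediate filament protein of muscle, without it, at -0.97. With the Apc mutation 12 of 14 were lower on deleted Vhl, with a median of -0.09, against 49.4% of all genes. On floxed Vhl 13 of 14 were lower, against 49.1%, with a median of -0.24, where the median of the 5 neural markers was -0.28. The median of -0.09 was -0.05 after cyclic loess and -0.14 with the mean over probe sets. The muscle markers' summed linear level was 30650 on the VhlΔIE/Apcmin/+ array, 40590 on the VhlF/F/Apcmin/+ array, 32813 on the VhlΔIE array and 45951 on the VhlF/F array, and all 14 lay above 6 on every array. Muscle and neuronal markers were thus lower together, and the part of the muscle layer in the results was not tested. The sizes differed, in 1 comparison by an amount that depended on the markers taken. For VhlΔIE minus VhlF/F the median of the 5 neural markers was -0.14, the value of Vip, against -0.56 for muscle. The 3 neuronal markers above the floor, without Vip and Sox10, had a median of -0.44 there. For VhlΔIE/Apcmin/+ minus VhlΔIE the median was -0.43 for the 5 markers and for these 3, against -0.09 for muscle. In this last comparison Vip was at -0.88, and Elavl4, Uchl1 and Prph lay between -0.44 and -0.38. The 14 muscle markers lay between -0.36, for Synpo2, and 0.08. Apart from Vip, none of these markers was 1.5-fold lower there.

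Cells of Cajal and endocrine cells were followed as well, since both lie close to nerves or share genes with them. Kit, the receptor tyrosine kinase of cells of Cajal and mast cells, was at 9.17, 9.21 and 9.14 on the VhlΔIE/Apcmin/+, VhlF/F/Apcmin/+ and VhlΔIE arrays and at 9.79 on the VhlF/F array. Kitl, its ligand, was likewise highest on the VhlF/F array, at 10.74, 10.68, 10.73 and 11.08 on the VhlΔIE/Apcmin/+, VhlF/F/Apcmin/+, VhlΔIE and VhlF/F arrays. Ano1, the chloride channel of cells of Cajal, was at 11.22 on the VhlΔIE/Apcmin/+ array, 12.05 on the VhlF/F/Apcmin/+ array, 11.59 on the VhlΔIE array and 11.82 on the VhlF/F array. Like Vip it was lowest on the VhlΔIE/Apcmin/+ array, with differences of -0.83 from VhlF/F/Apcmin/+ and -0.38 from VhlΔIE. The 3 genes thus did not show 1 order, and the part of cells of Cajal in the results was not tested. Enteroendocrine genes had medians of 0.09 and -0.02 with Vhl deletion and of 0.02 and -0.17 with the Apc mutation. Chga, the chromogranin of endocrine granules, was at 8.64 on the VhlΔIE/Apcmin/+ array, 8.70 on the VhlF/F/Apcmin/+ array, 8.29 on the VhlΔIE array and 8.92 on the VhlF/F array. Cck, a gut hormone that is also a neuropeptide, was at 8.12 on the VhlΔIE/Apcmin/+ array and 4.19 on the VhlF/F/Apcmin/+ array, and at 8.10 on the VhlΔIE array and 4.67 on the VhlF/F array. With floxed Vhl it lay within the range of the Bacillus controls, so the size of its Vhl difference is not given. Gcg, which encodes glucagon-like peptides, was at 9.60 on the VhlΔIE/Apcmin/+ array, 8.47 on the VhlF/F/Apcmin/+ array, 9.43 on the VhlΔIE array and 9.37 on the VhlF/F array, and so was low on the VhlF/F/Apcmin/+ array alone. Epithelial markers differed little as a list, with medians of 0.11, 0.05, -0.01 and -0.07 in the 4 comparisons.

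**Figure D3:**
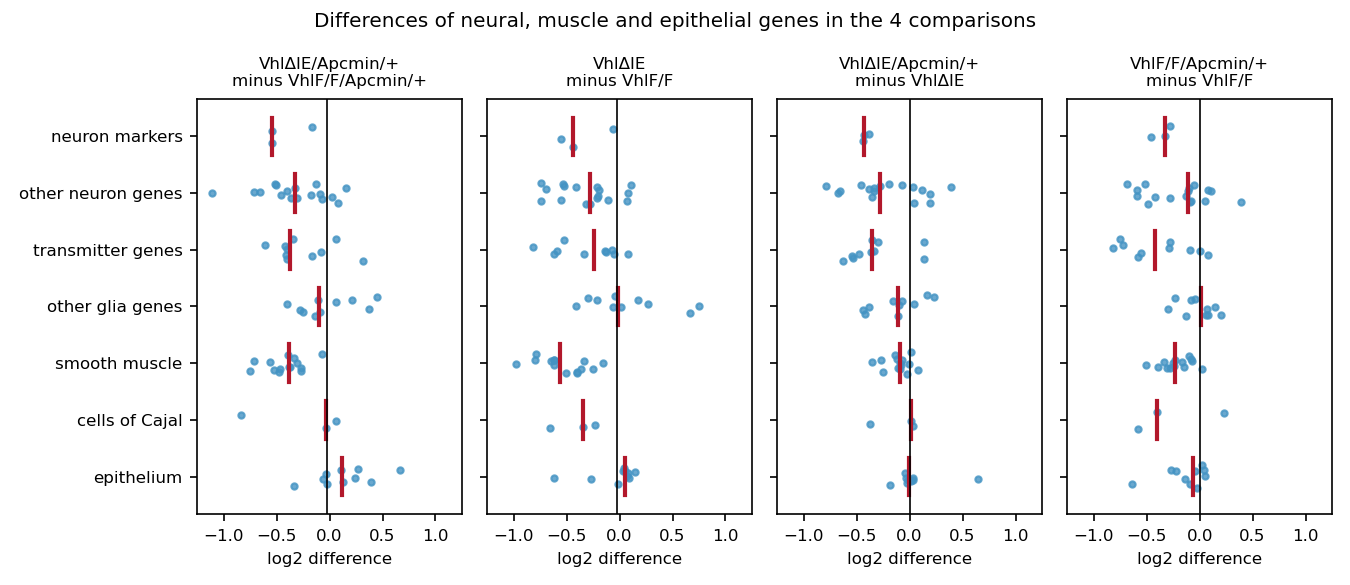
Log2 difference (horizontal axis) of genes above the floor in 7 gene lists (vertical axis), 1 panel per comparison. Points are genes, red bars the list medians and the black line the median of all 11871 genes; smooth muscle lies left of 0 in both Vhl comparisons, with medians of -0.39 and -0.56, and near 0 for VhlΔIE/Apcmin/+ minus VhlΔIE, at -0.09, where the 3 neuron markers have a median of -0.43.

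Genes with the most similar profiles were sought among 3192 other genes whose values ranged over at least 0.5. Likeness was the Euclidean distance between log2 values centred on each gene's mean over the 4 arrays, which is a weak measure with so few points. Nearest to the mean profile of the 5 markers were Ell2, Sgms2, Cxadr, Usp33 and Nmu, at distances of 0.041 to 0.055. Nmu, the neuropeptide neuromedin U, was at 6.91 on the VhlΔIE/Apcmin/+ array, 7.31 on the VhlF/F/Apcmin/+ array, 7.26 on the VhlΔIE array and 7.60 on the VhlF/F array, and was the 1 of the 5 that was on a neural list. Nearest to Vip, the marker with the widest range, were Fgf13 at a distance of 0.055, Slc16a12 at 0.14 and Lgals2 at 0.16. Fgf13, an intracellular growth factor homologue known from neurons, was at 6.39 on the VhlΔIE/Apcmin/+ array, 7.26 on the VhlF/F/Apcmin/+ array, 7.33 on the VhlΔIE array and 7.43 on the VhlF/F array. Slc16a12 was at 6.54, 7.34, 7.39 and 7.39 in the same order, and Lgals2 at 6.17, 6.75, 6.90 and 7.10. None of these genes nearest to Vip was on a neural list.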

How the data were processed

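The authors deposited 1 table of log2 values, with a column for each of the 4 arrays and a row for each of 45101 probe sets, which per the submitters' processing notes came from affy with RMA, versions not stated. RMA subtracts background, gives the arrays 1 distribution and combines probes by median polish, so differences of dim transcripts are understated and a shift of all transcripts would not be seen. The array medians lay between 6.05 and 6.07. Gene names came from GEO's platform annotation, which can be old. It gave 1 symbol for 34958 probe sets, several for 932, which were not used to name genes, and none for 9211.

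Each gene took its probe set with the highest mean, and entered counts if it reached 6 on at least 1 array. Differences are the log2 value of 1 array minus another. A difference of 2 arrays has no test, and the number of arrays limits the precision. A fit of Vhl and Apc as additive factors over the 4 arrays, which would take the Vhl difference as equal in both Apc backgrounds and leave 1 residual degree of freedom, was not run. Counting was tested on simulated data. The markers, the 14 other gene lists and the rules were chosen with earlier results of these data known. Beside the markers, the rule named the 3 genes of each list with the largest difference and any gene past 2-fold, and of the lists for cell types outside the nervous system the text names those that bear on a result. Alternatives were no floor, a floor of 7, values under 6 raised to 6, the mean over probe sets, leaving out probe sets whose names end in _x_at, _s_at or _a_at, cyclic loess (limma 3.58.1 in R 4.3.3), a 1.5-fold threshold and, added after the data were seen, a floor on the mean of the 4 arrays. Python 3.11.15, numpy 2.4.6, pandas 2.3.3 and matplotlib 3.10.9 were used. Promoter sequences came from RefSeq, build GRCm38.p6.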

Additional observations from a re-analysis of the deposited data

Results flagged for a closer look

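Some genes moved in opposite directions under the same contrast in the 2 backgrounds, each with 1 array a side, and none of these differences was tested. With Vhl deletion, Sox10 differed by 0.099 in the presence of the Apc mutation and -0.094 in its absence, Gfap by -0.23 and 0.094, and Gfra2 by -0.20 and 0.076. With the Apc mutation, S100b differed by -0.072 on deleted Vhl and 0.093 on floxed Vhl, Sema3a by -0.18 and 0.12, and Gfra2 by -0.025 and 0.25. Under the same contrast Ntrk2 differed by 0.40 on deleted Vhl and -0.36 on floxed Vhl, and Adcyap1r1 by -0.015 and 0.40. S100b and Gfap lay below the floor on every array.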

How the results depend on the processing

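No paired analysis was possible because each genotype has 1 array, and for the same reason no sample could be left out. The median difference of the markers stayed below 0 in all 4 comparisons under every alternative run, and moved by over 0.1 in 5 cases. Without a floor, which brings in 3 markers near background, it was -0.22 for VhlΔIE/Apcmin/+ minus VhlF/F/Apcmin/+ and -0.23 for VhlΔIE/Apcmin/+ minus VhlΔIE. For VhlΔIE minus VhlF/F it was -0.29 with a floor of 7, -0.34 with the mean over probe sets and -0.29 without probe sets ending in _x_at, _s_at or _a_at. The floor of 7 and this last choice both leave out Sox10, all of whose probe sets end in _a_at. The count of markers past the threshold became 1 in the comparisons of VhlΔIE/Apcmin/+ with VhlF/F/Apcmin/+ and with VhlΔIE at 1.5-fold, the marker being Vip, and stayed at 0 under all other alternatives run. A floor of 7 was reached by Prph, Uchl1 and Elavl4 on the VhlF/F array alone. With the mean over probe sets the Prph difference for VhlΔIE/Apcmin/+ minus VhlF/F/Apcmin/+ was -0.18, against -0.54 for its brightest probe set, and Sox10 changed sign in both Vhl comparisons, to -0.0053 with and 0.065 without the Apc mutation. Signal over background limits what can be said of Tubb3, S100b and Gfap.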
